A study of Mus musculus with 20 samples.

Results

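Spinal muscular atrophy (SMA) is a motor neuron disease caused by loss of the SMN protein, and the genes described here are those of 8 proteins of the minor spliceosome together with Tmem41b, also called Stasimon, whose RNA contains a minor-class intron. They were the rows of the deposited expression table with the gene symbols Zrsr2, Rnpc3, Snrnp25, Snrnp35, Snrnp48, Zcrb1, Zmat5, Pdcd7 and Tmem41b, 9 genes of 45700 in all. RNA-seq of total cytoplasmic RNA and POL-seq of polysomal RNA were available from whole mouse brain, 20 libraries in all. SMA mice were of the "Taiwanese" model on a congenic FVB background, Smn-/- with the human SMN2 transgene (Smn-/-; SMN2tg/0), and controls were littermates, which per the study's methods carried 1 working Smn allele and the same transgene (Smn-/+; SMN2tg/0). Brains came from 2 control and 2 SMA mice of postnatal day 5, when the disease was early-symptomatic, and from 3 control and 3 SMA mice of day 7, when it was late-symptomatic, and each replicate number had a total and a polysomal library. Because every mouse carried SMN2 and every control was heterozygous, the design holds no brain with a full complement of mouse Smn.

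A small class of introns, the U12-type introns, is removed not by the major spliceosome but by a minor one. Its U11 and U12 small nuclear RNPs bind the intron together as a di-snRNP, in which U11 reads the start of the intron and U12 its branch point. Snrnp25, Snrnp35, Snrnp48 and Pdcd7 are proteins of the U11 particle, Rnpc3 binds U12 snRNA and bridges it to U11 through Pdcd7, Zcrb1 and Zmat5 are further proteins of the di-snRNP, and Zrsr2 recognizes the end of the intron. SMN loads the ring of Sm proteins onto U11 and U12 as onto the major snRNAs. The ring sits on a short uridine-rich stretch of the RNA. Tmem41b is a membrane protein of the endoplasmic reticulum that moves lipids and is needed to form autophagosomes.

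The RNAs that these proteins bind are given here as DNA letters from the Gencode M21 transcripts, 5′ to 3′, because their levels are part of the results below. Capitals mark the uridine-rich stretch in which the Sm ring is assembled. Rnu11 (U11) lies at chr4:132270080-132270213 on the minus strand of GRCm38 and Rnu12 (U12) at chr15:83149644-83149794 on the plus strand.
Rnu11: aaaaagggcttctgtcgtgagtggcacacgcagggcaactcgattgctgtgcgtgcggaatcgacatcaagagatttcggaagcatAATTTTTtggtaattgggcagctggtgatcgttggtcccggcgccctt
Rnu12: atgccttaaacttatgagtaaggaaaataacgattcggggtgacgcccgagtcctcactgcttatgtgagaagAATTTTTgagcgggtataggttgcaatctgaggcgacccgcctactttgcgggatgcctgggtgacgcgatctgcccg
Both RNAs hold the letters AATTTTT exactly 1 time, at bases 87 to 93 of the 134 bases of Rnu11 and at bases 74 to 80 of the 151 bases of Rnu12, and neither holds them on the other strand. Of 1190 annotated snRNA transcripts of 100 to 200 bases, many of them copies of unknown activity, 3.61% hold these letters on the transcribed strand and 7.82% on either strand. Among 1019 snoRNA transcripts of the same length, the shares were 0.294% and 1.86%.

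Levels are given as FPKM, in which the fragments of a gene are scaled to its length and to the depth of the library. The number of reads behind a single value is unknown, since FPKM hold no counts, and library totals that the study gives were not used here. The labelled tissue was checked on marker genes. The neuronal gene Map2 lay between 285 and 452 FPKM in the 20 libraries, whereas the liver gene Alb did not pass 0.19 FPKM and the kidney gene Umod did not pass 0.04 FPKM. The skeletal muscle gene Acta1, also chosen as a marker of another tissue, was not absent. Its median was 4.65 FPKM, with a range of 0 to 6.78 FPKM. The sum of these 3 other-tissue genes was 0 and 0.01 FPKM in the early control polysomal libraries. The source of the Acta1 values was not tested. Smn1 did not separate the genotypes. In early total RNA it was at 9.71 and 8.92 FPKM in controls and 9.55 and 10.1 FPKM in SMA mice. In late total RNA the controls were at 13.6, 14.1 and 16.7 FPKM and the SMA mice at 11.9, 12.7 and 17.5 FPKM. A value per gene cannot show whether a particular exon is missing, and how reads of the human transgene were aligned was not tested, so the Smn1 values are no check of the genotype labels.

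Some properties of the libraries bear on what follows. The neuronal gene Tubb3 was listed at 0 FPKM in both early control polysomal libraries and at 562 FPKM or more in the other 18, so a value of 0 in this table need not mean an absent RNA, but none of the 9 genes was at 0 in any library. The early SMA total library of replicate 1 stood apart from the rest. Its deviations from the gene means correlated with transcript length (Spearman's rho 0.458 across protein-coding genes, which are not independent replicates), against -0.265 to 0.164 in the other 19 libraries. Where leaving out that mouse changed a call for 1 of the 9 genes, the value without it is given beside the result. The sex of a library, judged by Xist and Y-linked genes, was the same in the total and polysomal library of all 10 replicate numbers, but it was not balanced. That both libraries of a number came from the same mouse is not stated in the sources used here, so that a mouse below stands for a replicate number of a group. The early SMA mice were 1 female and 1 male against 2 male controls, and the late SMA mice were 2 males and 1 female against 2 female controls and 1 male.

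In late control total RNA, Zcrb1 was the most abundant of the 9 RNAs and the U11 proteins Pdcd7 and Snrnp48 the least. Zcrb1 had 43.2 ± 3.41 FPKM (SD, n = 3), Tmem41b 23.7 ± 1.1 FPKM, Snrnp25 18.1 ± 1.11 FPKM and Zrsr2 14.4 ± 2.24 FPKM. The libraries of these genes did not overlap from 1 gene to the next in that order. The other 5 genes, Zmat5 (7.93 ± 0.262 FPKM), Snrnp35 (7.86 ± 0.918 FPKM), Rnpc3 (7.43 ± 1.71 FPKM), Pdcd7 (6.03 ± 0.514 FPKM) and Snrnp48 (5.95 ± 0.72 FPKM), each overlapped their neighbour in the order. Genes further apart in it could still differ, as Zmat5 lay above Pdcd7 and Snrnp48 by more than their SDs. Zcrb1 had the highest mean in 6 of the 8 groups, and Tmem41b in early control polysomal (34.2 FPKM) and late SMA polysomal RNA (24.9 FPKM). In both of the latter groups its libraries overlapped those of the next gene, Zrsr2 (33 FPKM) and Zcrb1 (24.8 FPKM). The lowest mean was that of Pdcd7, Rnpc3, Zmat5 or Snrnp48, depending on the group. The rows of Rnpc3 and Zmat5 share their place with another gene, so that their reads could have been split between rows. Rnpc3 has the same locus in the table as Amy1 on the same strand (chr3:113555710-113630149), and Zmat5 the same as Cabp7 on the other strand (chr11:4704678-4746778). Zrsr2 has a close copy, Zrsr1, which was at 6.57 to 11.8 FPKM over the 20 libraries.

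**Figure D1:**
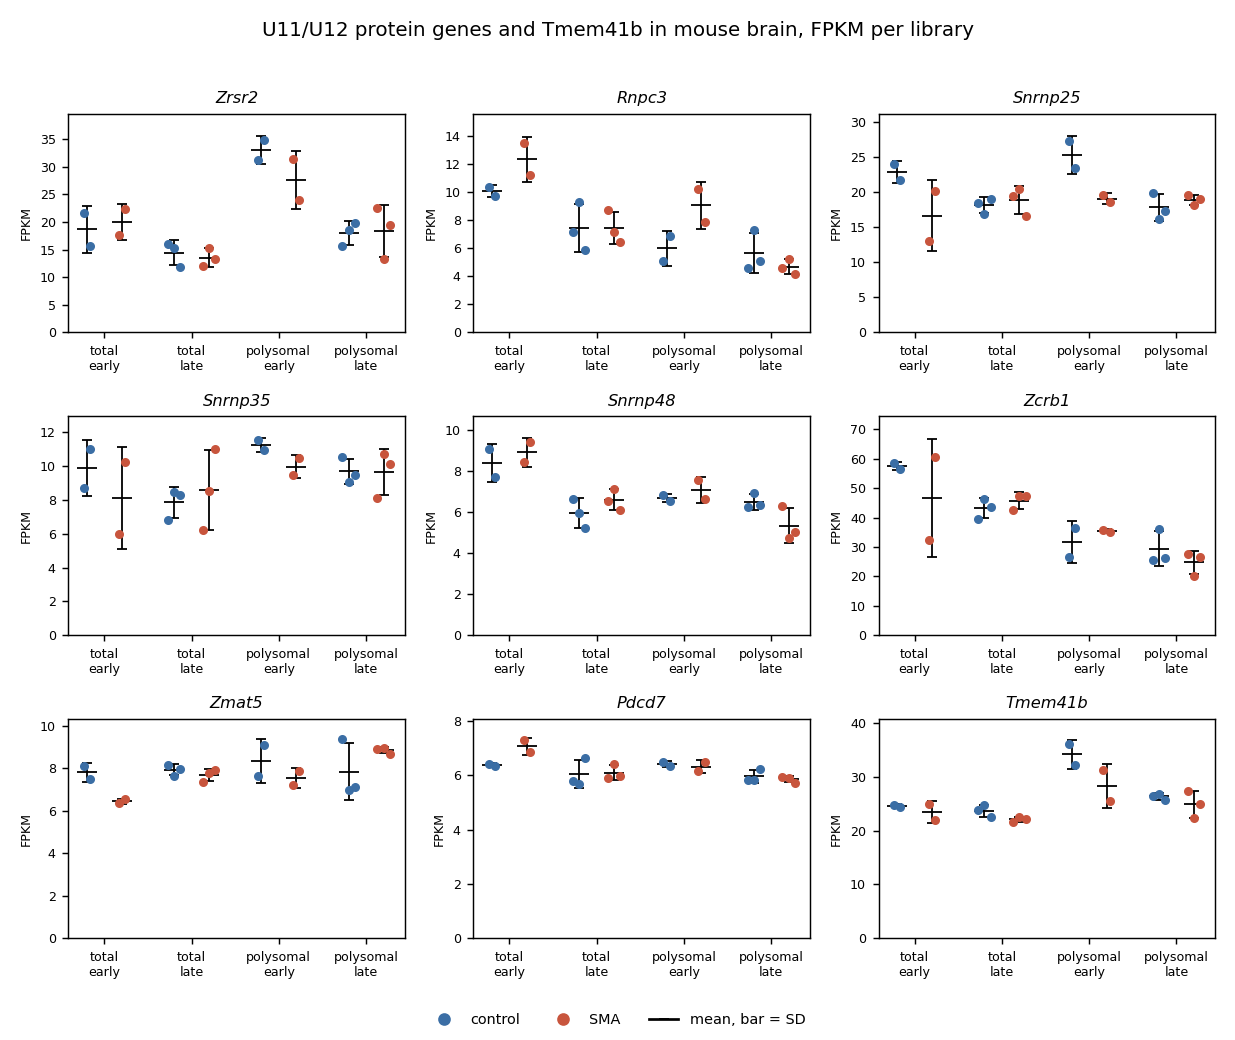
FPKM of each of the 9 genes (vertical axes, linear, from 0) in every library, by RNA fraction and stage; blue points are control and red points SMA libraries, and black marks give the group mean with its SD (n = 2 early, n = 3 late). Zrsr2 reached its highest values in early polysomal RNA (23.9 to 34.8 FPKM), and at the late stage the control and SMA points of all 9 genes overlap in both fractions.

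Whether Tmem41b RNA was lower in SMA brain was asked in each stage and fraction with limma on log2(FPKM + 0.1). In early total RNA Tmem41b was at 24.8 and 24.4 FPKM in controls and at 24.9 and 22.0 FPKM in SMA mice. In late total RNA the controls were at 23.8, 24.7 and 22.5 FPKM and the SMA mice at 21.6, 22.5 and 22.2 FPKM. The late groups thus touched at a single control library, replicate 3. The log2 difference was -0.07 at the early stage (SE 0.09, adjusted p = 0.737 by limma) and -0.10 at the late stage (SE 0.05, unadjusted p = 0.087, adjusted p = 0.564 by limma), neither of them past the threshold of an unadjusted p of 0.05 that the study used. As a ratio, the 95% interval of the late difference ran from 0.864 to 1.01. Without early SMA replicate 1 the early difference was -0.16 (unadjusted p = 0.0864 by limma). Without control replicate 3 the late difference was -0.13 and passed (unadjusted p = 0.0272 by limma).

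In polysomal RNA Tmem41b was at 36.1 and 32.3 FPKM in early controls and at 31.2 and 25.5 FPKM in early SMA mice. In the late libraries it was at 26.5, 26.8 and 25.7 FPKM in controls and at 27.4, 22.4 and 24.97 FPKM in SMA mice. The early SMA values lay below both controls, as did those of 26.6% of all tested genes, and late SMA replicate 1 lay above all 3. Neither difference was called (log2 difference -0.27, SE 0.14, adjusted p = 0.455 early; -0.09, SE 0.08, adjusted p = 0.723 late, by limma). Without early SMA replicate 1 the early difference was -0.42 (unadjusted p = 0.0735 by limma), and in a model over all libraries it was -0.27 and called (unadjusted p = 0.0194 by limma). Over both stages, in a fit with stage as a term, which uses the same libraries, the difference was -0.08 in total RNA (SE 0.04, unadjusted p = 0.0835 by limma) and -0.16 in polysomal RNA (SE 0.08, unadjusted p = 0.0762 by limma). An exact two-sided permutation test of genotype within stage gave p = 0.117 for total and 0.1 for polysomal RNA (120 arrangements, smallest possible p 0.0167; Benjamini-Hochberg adjusted over 11 genes per fraction 0.33 and 0.55). All these estimates for Tmem41b were below 0. Of 21 alternatives for the total RNA estimate over both stages, 4 passed the unadjusted threshold and the other 17 did not. It passed with libraries rescaled to equal medians (-0.09, unadjusted p = 0.0493 by limma), after quantile normalization (-0.10, unadjusted p = 0.0192 by limma) and with transcript length corrected (-0.09, unadjusted p = 0.0443 by limma). Without early SMA replicate 1 it was -0.11 and passed as well (unadjusted p = 0.012 by limma). In polysomal RNA 2 of 21 alternatives passed, a model over all libraries (-0.18, unadjusted p = 0.0179 by limma) and leaving out late SMA replicate 1 (-0.21, unadjusted p = 0.0242 by limma).

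Of the 8 U11/U12 protein genes, none was called between genotypes in total RNA at either stage, where 8.25% of all 15247 tested genes were called at the early and 9.54% at the late stage. In polysomal RNA 1 was called at the early stage (12.5% of all genes) and none at the late stage (10.7% of all genes). Across all 9 genes the median log2 difference was -0.07 in early total, -0.14 in early polysomal, 0.02 in late total and -0.03 in late polysomal RNA, and over all tested genes it was within 0.01 of 0 in each. Without SMA replicate 1 the early medians of the 9 were 0.08 in total and -0.08 in polysomal RNA, so that the sign in total RNA rested on that mouse. The late total intervals differed in width between the genes. The ratio of SMA to control lay between 0.927 and 1.21 for Zcrb1 and between 0.877 and 1.23 for Snrnp25, but between 0.704 and 1.45 for Rnpc3, so that a change of Rnpc3 within those bounds was not detectable with these libraries.

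The called gene was Snrnp25, the 25K protein of the U11 particle. In early polysomal RNA it was at 27.2 and 23.4 FPKM in controls and at 19.6 and 18.5 FPKM in SMA mice, so that the SMA libraries were the lower ones, as for the 26.6% of all genes that lay lower without overlap there. The log2 difference was -0.41 (SE 0.11, unadjusted p = 0.0282, adjusted p = 0.386 by limma). In early total RNA, Snrnp25 was at 24.0 and 21.8 FPKM in controls, 13.0 FPKM in SMA replicate 1 and 20.2 FPKM in SMA replicate 2, a log2 difference of -0.49 that was not called (SE 0.26, adjusted p = 0.552 by limma). SMA replicate 1 was the low library in total RNA. Without SMA replicate 1 the log2 difference was -0.18 in total and -0.45 in polysomal RNA, and neither was called (unadjusted p = 0.196 and 0.0931 by limma). After correction for transcript length, the polysomal difference was -0.24 and no longer past the threshold (unadjusted p = 0.0719 by limma). In the same early polysomal libraries the endothelial marker Cldn5 was lower in SMA by a log2 difference of -1.62 (unadjusted p = 0.0155 by limma), and its part in the Snrnp25 value was not tested. At the late stage Snrnp25 spanned 16.2 to 19.9 FPKM in control and 18.2 to 19.6 FPKM in SMA polysomal RNA, and the groups overlapped.

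The early SMA total library of replicate 1 also held the lowest Zcrb1 and Snrnp35 values among the early total libraries. Zcrb1 was at 32.5 FPKM there, against 58.6 and 56.6 FPKM in controls and 60.7 FPKM in SMA replicate 2. Snrnp35, the U11 counterpart of the U1 70K protein, was at 5.98 FPKM there and at 8.73 to 11.1 FPKM in the other 3. Both genes have intervals that span 0 by a wide margin in early total RNA (log2 -1.45 to 0.71 for Zcrb1 and -1.35 to 0.71 for Snrnp35). Without SMA replicate 1 the log2 difference was 0.08 for Zcrb1 and 0.06 for Snrnp35, and none of the 9 genes was called at the early stage in either fraction. Without SMA replicate 2, so that replicate 1 stood alone for its group, 3 of the 9 genes were called in early total RNA, Snrnp25 and Zcrb1 as lower and Rnpc3 as higher. Length correction is among the alternatives below, but the part of this library's length bias in those values was not tested.

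Rnpc3 and Zmat5 lay on opposite sides of the controls in early SMA total RNA, neither of them past the threshold within the stage. Rnpc3 was at 10.3 and 9.74 FPKM in early control total RNA and at 13.5 and 11.2 FPKM in SMA, and in polysomal RNA the controls had 5.08 and 6.88 FPKM and the SMA mice 10.2 and 7.87 FPKM. Both SMA libraries lay above both controls in each fraction, with log2 differences of 0.29 (SE 0.13, adjusted p = 0.551 by limma) and 0.59 (SE 0.24, adjusted p = 0.421 by limma). In either direction, 47.6% of all genes did not overlap between genotypes in early total and 50.5% in early polysomal RNA. Without SMA replicate 1 the Rnpc3 differences were 0.16 and 0.41 (unadjusted p = 0.239 and 0.29 by limma). Its locus partner Amy1 was at 7.25 and 8.39 FPKM in early control and at 9 and 9.04 FPKM in early SMA total RNA, also with SMA above control. Zmat5 was at 8.12 and 7.49 FPKM in early control total RNA and at 6.36 and 6.54 FPKM in SMA. In early polysomal RNA its groups overlapped, at 7.63 and 9.09 FPKM in controls and 7.22 and 7.89 FPKM in SMA (log2 difference -0.14, unadjusted p = 0.408 by limma). In the fit over both stages Zmat5 was the only one of the 9 called in total RNA, at a log2 difference of -0.13 (SE 0.06, unadjusted p = 0.0472, adjusted p = 0.369 by limma), where 13.3% of all genes were called. The exact permutation test within stage gave p = 0.0667 for it, and after length correction the difference was -0.06 (unadjusted p = 0.246 by limma). Without early SMA replicate 1 it was -0.11 and not called (unadjusted p = 0.103 by limma). None of the 9 was called over both stages in polysomal RNA, where 16.2% of all genes were.

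**Figure D2:**
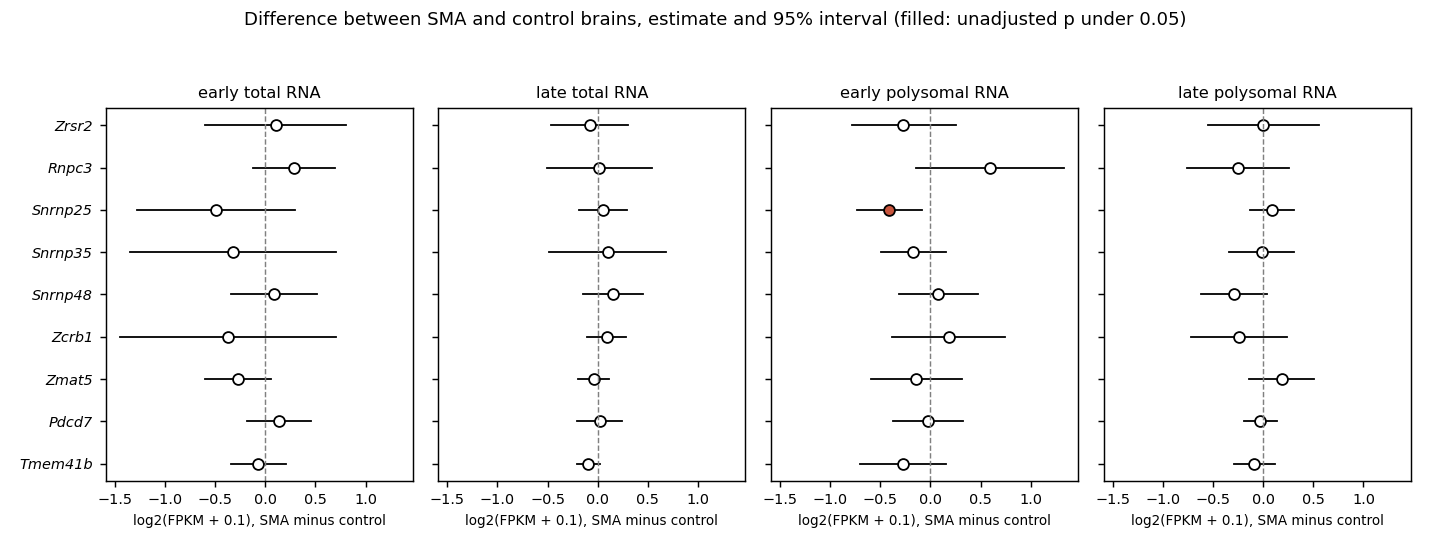
Difference of log2(FPKM + 0.1) between SMA and control libraries (horizontal axes, SMA minus control) for the 9 genes in each stage and fraction; points are limma estimates, lines their 95% intervals, and a filled point has an unadjusted p under 0.05. Only Snrnp25 in early polysomal RNA is filled, and the early total intervals of Zcrb1, Snrnp35 and Snrnp25 are the widest.

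Pdcd7, which links U11 to Rnpc3, varied least. Over the 20 libraries it lay between 5.68 and 7.28 FPKM, and its log2 difference between genotypes was at most 0.14 in size in any stage and fraction. Snrnp48, which in the U11 particle sits at the start of the intron, was at 6.25, 6.94 and 6.33 FPKM in late control polysomal RNA and at 6.30, 4.72 and 5.02 FPKM in SMA. SMA replicates 2 and 3 were lower than every control and replicate 1 was not, and the difference was not called (log2 -0.29, SE 0.13, unadjusted p = 0.0761, adjusted p = 0.504 by limma). Zrsr2 showed no steady direction, with log2 differences of 0.11 in early total, -0.27 in early polysomal and -0.08 in late total RNA and a ratio of 1 in late polysomal RNA, none of them called. The gene lies on the X chromosome, and the part of the unbalanced sexes in its values was not tested.

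Translation efficiency (TE) was taken as the log2 difference of polysomal and total RNA, and its change as the difference of that value between SMA and control. No gene of the 9 was called for a change in TE at the early stage, where 2.32% of all genes were called. Snrnp48 alone was called at the late stage, where 2.07% of all genes were. Late Snrnp48 TE was -0.09, 0.21 and 0.27 in controls and -0.05, -0.59 and -0.28 in SMA mice. The lowest control and the highest SMA mouse overlapped. The change was -0.44 (SE 0.17, unadjusted p = 0.0319, adjusted p = 1 by limma), and with the mouse number as a block it was past the threshold no longer (unadjusted p = 0.0541 by limma). It was not called either without each of late control replicates 2 and 3 and late SMA replicates 2 and 3 (-0.45 to -0.30, unadjusted p = 0.0639 to 0.151 by limma). The change in Tmem41b TE was -0.21 at the early stage, with a 95% interval from -0.65 to 0.24 (unadjusted p = 0.294 by limma), and 0.01 at the late stage, with an interval from -0.20 to 0.22 on the log2 scale.

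Whether the genotype difference changed between stages was tested as an interaction. In total RNA Zmat5 alone was called (10.1% of all genes were), and in polysomal RNA Snrnp25 and Rnpc3 (13.7% of all genes), with adjusted p = 0.486, 0.295 and 0.348 by limma. The Zmat5 value of 0.23 was -0.02 with transcript length corrected, and it was not called in a fit blocked on mouse number (unadjusted p = 0.121 by limma) or without early SMA replicate 1 (0.21, unadjusted p = 0.101 by limma). The Rnpc3 value was not called without each of 5 mice, which were early control replicate 1, early SMA replicate 1, late control replicate 2 and late SMA replicates 1 and 3. It was -0.84 with all mice and -0.65 without early SMA replicate 1 (unadjusted p = 0.13 by limma). The Snrnp25 difference was -0.41 at the early and 0.09 at the late stage, and that of Rnpc3 was above 0 at the early stage and below 0 at the late stage. Tmem41b was not among them, with a difference between stages of -0.03 in total RNA (SE 0.09, adjusted p = 0.912 by limma) and 0.19 in polysomal RNA (SE 0.16, adjusted p = 0.584 by limma).

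With both genotypes in the fit, the 9 RNAs differed in how they were distributed between polysomal and total RNA. These values are relative to all RNA in a library, since each library was normalized by itself. The main fits took the total and polysomal library of a replicate number as independent. At the early stage 5 of the 9 genes differed between fractions, where 38.5% of all genes did, and at the late stage 4 of 9, where 42.2% did, both at an unadjusted p under 0.05. Tmem41b and Zrsr2 were higher in polysomal RNA at both stages. Zcrb1 and Rnpc3 were lower in polysomal RNA at both stages. Snrnp48 was lower at the early stage, and Snrnp25, Snrnp35, Zmat5 and Pdcd7 were called at neither.

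Tmem41b TE was 0.54 and 0.40 in early controls, 0.32 and 0.21 in early SMA mice, 0.15, 0.12 and 0.19 in late controls and 0.34, -0.01 and 0.17 in late SMA mice. Both early SMA values lay below both early controls, as did those of 16.1% of all genes. TE was above 0 in 9 of 10 replicate pairs of libraries. The log2 difference between fractions was 0.37 at the early stage (SE 0.09, adjusted p = 0.0386 by limma) and 0.16 at the late stage (SE 0.04, adjusted p = 0.0195 by limma), and it was called without each mouse in turn.

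Zcrb1 gave the largest late difference of the 9. In late total RNA it was at 39.7, 46.5 and 43.6 FPKM in controls and at 42.7, 47.3 and 47.5 FPKM in SMA mice, and in late polysomal RNA at 25.5, 36.3 and 26.4 FPKM in controls and at 27.5, 20.2 and 26.8 FPKM in SMA mice. Every polysomal library lay below every total library, as for 6.88% of all genes, with a log2 difference of -0.73 (SE 0.11, unadjusted p = 7.24e-05, adjusted p = 0.000984 by limma). At the early stage the difference was -0.60 (SE 0.23, adjusted p = 0.11 by limma). There it was not past the threshold with the mouse number as a block (unadjusted p = 0.0516 by limma), nor without either control or SMA replicate 2, and SMA replicate 1 was the exception, with a TE of 0.14 against -0.63, -0.79 and -1.14 in the other early mice. Rnpc3 was lower in polysomal RNA by 0.60 at the early and 0.52 at the late stage on the log2 scale (log2 differences -0.60 and -0.52, SE 0.15 each, adjusted p = 0.0372 and 0.0205 by limma), and its TE was below 0 in 10 of 10 replicate pairs of libraries. Its locus partner Amy1 moved the same way, at 7.25 to 9.04 FPKM in early total and 3.5 to 5.23 FPKM in early polysomal RNA. At the late stage Amy1 was at 3.03 to 7.14 FPKM in total and 1.43 to 3.58 FPKM in polysomal RNA. How reads were divided between the rows of Rnpc3 and Amy1 was not tested.

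Zrsr2 was at 15.7 to 22.3 FPKM in the 4 early total libraries and at 23.9 to 34.8 FPKM in the 4 early polysomal ones. The fractions did not overlap, with polysomal RNA the higher, as for 11.2% of all genes, and the log2 difference was 0.65 (SE 0.16, adjusted p = 0.0394 by limma). Without SMA replicate 1 it was 0.59 and not called (unadjusted p = 0.0518 by limma). At the late stage the difference was 0.37 (SE 0.13, adjusted p = 0.06 by limma), and with the mouse number as a block it lost its call (unadjusted p = 0.062 by limma) while that of Snrnp35 was gained (log2 difference 0.25, unadjusted p = 0.0401 by limma).

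**Figure D3:**
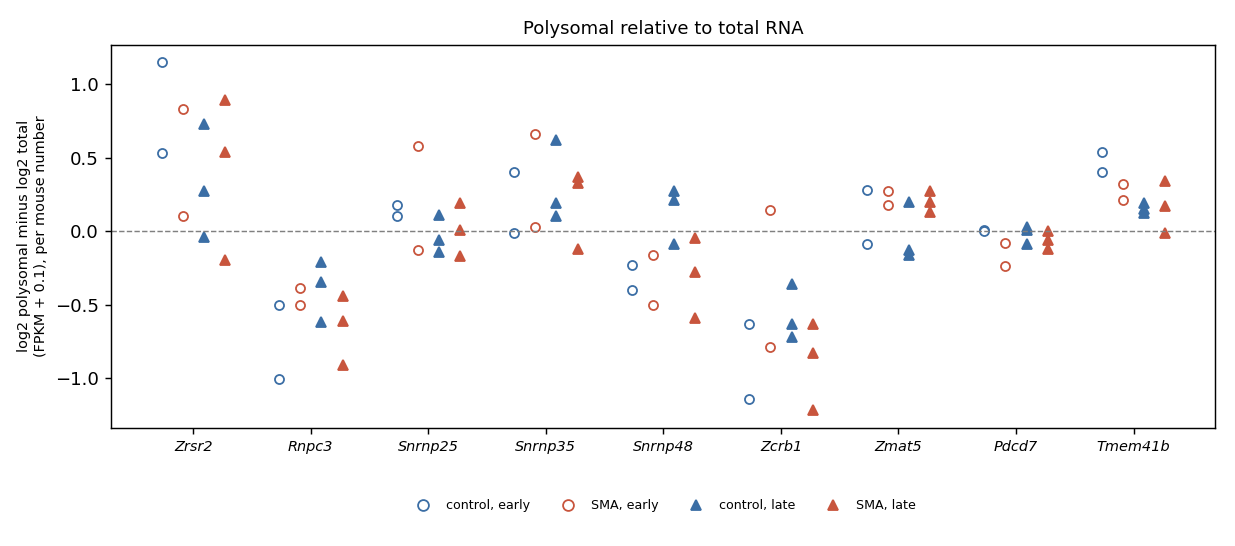
Polysomal minus total log2(FPKM + 0.1) (vertical axis) for each of the 9 genes in each of the 10 same-numbered pairs of libraries; open circles are early and filled triangles late pairs, blue control and red SMA, and the dashed line marks equal values. Rnpc3 lies below the line in all 10 pairs and Tmem41b above it in 9 of 10.

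The 9 RNAs were also compared between day 7 and day 5. Both stages were separate sets of mice, and stage cannot be told apart from any batch in which they were processed. In total RNA 5 of the 9 genes differed, where 49.6% of all genes did, and in polysomal RNA 5 of 9, where 54.7% of all genes did, so that the members' count was near the background. As lower at day 7, 4 of 9 were called in total RNA (26.6% of all genes) and 5 of 9 in polysomal RNA (28.3% of all genes). Zrsr2 fell by 0.46 on the log2 scale in total RNA (log2 difference -0.46, SE 0.13, adjusted p = 0.0264 by limma) and by 0.74 in polysomal RNA (-0.74, SE 0.16, adjusted p = 0.00634 by limma). Rnpc3 fell by 0.59 in total RNA (-0.59, SE 0.14, adjusted p = 0.0117 by limma), where all late libraries (5.90 to 9.28 FPKM) lay below all early ones (9.74 to 13.5 FPKM), as for 14.3% of all genes, and by 0.51 in polysomal RNA (-0.51, SE 0.21, adjusted p = 0.0789 by limma), which was -0.34 and not called without early SMA replicate 1 (unadjusted p = 0.139 by limma). Amy1, which shares the Rnpc3 locus, was at 7.25 to 9.04 FPKM in early and 3.03 to 7.14 FPKM in late total RNA, also without overlap. In polysomal RNA the stages of Amy1 overlapped, at 3.5 to 5.23 FPKM early and 1.43 to 3.58 FPKM late. Snrnp48 fell in total RNA from 7.73 to 9.42 FPKM in the early libraries to 5.22 to 7.14 FPKM in the late ones, without overlap (log2 difference -0.46, SE 0.09, adjusted p = 0.00371 by limma).

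Tmem41b fell between stages in polysomal RNA (log2 difference -0.28, SE 0.08, adjusted p = 0.0228 by limma), and in total RNA its difference was -0.07 (SE 0.04, adjusted p = 0.248 by limma). Pdcd7 passed the unadjusted threshold as lower in both fractions, by -0.15 in total and -0.11 in polysomal RNA, Snrnp25 as lower in polysomal RNA (-0.26), and Zmat5 as higher in total RNA (0.14). The 95% interval of the Zmat5 difference began at 0.00, and after length correction it was 0.03 and the Pdcd7 differences were -0.12 and -0.07, all 3 no longer past the threshold. Without early SMA replicate 1 the Zmat5 and Pdcd7 differences in total RNA were 0.10 and -0.12 and not called (unadjusted p = 0.135 and 0.116 by limma). Without the same mouse Zcrb1 and Snrnp25 were called as lower at day 7 in total RNA (-0.41 and -0.25, unadjusted p = 0.00016 and 0.0227 by limma), which they were not with it (-0.19 and -0.06).

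Other proteins of the minor spliceosome, the SF3b complex that U2 and U12 share, and counterparts in the major spliceosome were counted from fixed lists. Over all tested genes, 8.25% were called in early total, 12.5% in early polysomal, 9.54% in late total and 10.7% in late polysomal RNA, in either direction. Of 9 further minor spliceosome proteins, 1 was called in each genotype comparison. Cript was lower in early total (log2 difference -0.23) and early polysomal RNA (-0.31), Tssc4 higher in late total RNA (0.20) and Rbm41, which binds U12 and U6atac snRNA, lower in late polysomal RNA (-0.39). Of 7 SF3b proteins, Sf3b6 and Phf5a were lower in early polysomal RNA (-0.29 and -0.24) and Sf3b6 was higher in late total RNA (0.11), and in the other 2 genotype comparisons none was called. None of these passed Benjamini-Hochberg adjustment over all genes. Without early SMA replicate 1, 0 of either list were called in early polysomal RNA and 1 of each was called lower in early total RNA, where 7.76% and 8.39% of all genes were called. Of 7 major spliceosome counterparts, 1 was called higher and 2 lower in early total RNA, none in early polysomal RNA, 1 higher and 1 lower in late total RNA and 1 higher in late polysomal RNA. Snrpa1, the U2 A′ protein, was called as higher in SMA in 3 of the 4 comparisons, by 0.27 in early total, 0.48 in late total and 0.73 in late polysomal RNA. In early polysomal RNA its log2 difference was 0.19 and not called (unadjusted p = 0.187 by limma). Over both stages in total RNA its log2 difference was 0.39 (SE 0.06, adjusted p = 0.0271 by limma), past adjustment where 0.623% of all genes were.

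Genes known to carry U12-type introns were taken as a fixed list of 18, with sodium and calcium channel subunits, MAP kinases and Raf kinases among them, and as gene totals they say nothing of whether the intron was retained. In early total RNA 3 were called higher and 1 lower, in early polysomal RNA 4 and 1, in late total RNA none and in late polysomal RNA 2 lower, beside 8.25%, 12.5%, 9.54% and 10.7% of all genes in either direction. Their median log2 difference was 0.33, 0.25, -0.05 and -0.07 in that order. The early higher ones were long channel RNAs (Scn1a, Scn3a and Cacna1b in total RNA). What part transcript length had in these calls was not tested. The early SMA total library of replicate 1 was the one whose deviations correlated most with transcript length. Without that mouse 3 of the 18 were called higher and 0 lower in early total RNA and 2 higher and 1 lower in early polysomal RNA, with medians of 0.15 and 0.30 and with 8.39% and 7.76% of all genes called, in a comparison added after the data were seen. E2f1, a transcription factor of the cell cycle, was the only one of the 18 whose total RNA did not overlap between genotypes at either stage and in the same direction, which held for 5.73% of all genes. It was at 3.54 ± 0.375 FPKM in early controls and 2.40 ± 0.205 FPKM in early SMA mice (SD, n = 2 each), and at 3.43 ± 0.335 and 2.91 ± 0.221 FPKM at the late stage (SD, n = 3 each). Over both stages its log2 difference was -0.35 (SE 0.10), given without a test because the gene was named for its separation in these libraries. In early polysomal RNA E2f1 was at 1.89 and 1.93 FPKM in controls and 1.25 and 1.34 FPKM in SMA (log2 difference -0.53). At the late stage the polysomal groups overlapped (2.61 ± 0.419 and 2.68 ± 0.235 FPKM, SD, n = 3 each), and the genotype difference changed between stages by 0.57 on the log2 scale. These polysomal values are given without a test too, since they come from the same replicate numbers.

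The U12 snRNA was called as lower in late SMA total and polysomal RNA, at the unadjusted threshold. Both fractions were taken from cytoplasmic lysates, so the snRNA level of nuclei or of whole cells was not measured. Rnu12 was at 1205, 960 and 860 FPKM in late control total RNA and at 525, 532 and 274 FPKM in SMA. Every SMA library lay below every control. The log2 difference was -1.23 (SE 0.31, unadjusted p = 0.00956, adjusted p = 0.346 by limma), a ratio of 0.425 with a 95% interval of 0.247 to 0.732. It kept its call under each of the 17 alternatives tried, but none of them brought the adjusted p below 0.311. In late polysomal RNA Rnu12 was at 208, 177 and 163 FPKM in controls and at 88.0, 145 and 105 FPKM in SMA, again without overlap (log2 difference -0.72, SE 0.21, unadjusted p = 0.0163, adjusted p = 0.358 by limma). The polysomal difference lost its call without control replicate 1 and in a model over all libraries. Over both stages the total RNA difference was -1.06 (SE 0.45, unadjusted p = 0.0466, adjusted p = 0.368 by limma), and the exact permutation test within stage gave p = 0.133. That difference was called in 12 of 21 alternatives. In polysomal RNA the mean difference of Rnu12 was -0.58, and the same permutation test gave p = 0.3. Of all tested genes, 7.37% lay lower in SMA without overlap in late total and 8.24% in late polysomal RNA.

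Rnu11 was also lower in late total RNA, at 287, 225 and 207 FPKM in controls and 168, 137 and 104 FPKM in SMA (log2 difference -0.82, SE 0.22, unadjusted p = 0.0119, adjusted p = 0.365 by limma). Its row is uncertain because a lincRNA, Gm28872, lies on the other strand of the same locus. The library kit keeps strand, but the study's methods give default settings for its programs, and by default TopHat and Cufflinks treat reads as unstranded. Reads of Rnu11 and Gm28872 can then not be told apart, nor those of Zmat5 and Cabp7 where they overlap. Summed with Gm28872, a step added after the data were seen, the values were 637, 567 and 655 FPKM in controls and 512, 536 and 304 FPKM in SMA, still without overlap, and the difference was -0.50 and not called (unadjusted p = 0.0894 by limma). In a model over all libraries the Rnu11 difference was not called either (unadjusted p = 0.343 by limma). In late polysomal RNA Rnu11 was at 90.5, 50.4 and 53.0 FPKM in controls and at 55.7, 10.98 and 25.2 FPKM in SMA. SMA replicate 1 overlapped the controls, and the difference of -1.32 was not called (SE 0.64, unadjusted p = 0.0906, adjusted p = 0.524 by limma). It was called with replicate number as a block (unadjusted p = 0.0296 by limma) and without SMA replicate 1 (-1.90, unadjusted p = 0.0143 by limma). Over both stages the Rnu11 difference was -1.13 in total (SE 0.63, unadjusted p = 0.107 by limma) and -1.18 in polysomal RNA (SE 0.61, unadjusted p = 0.0864 by limma), and the exact permutation test within stage gave p = 0.117 and 0.183. Both were called without early SMA replicate 1 (-1.66 and -1.67, unadjusted p = 0.0114 and 0.0109 by limma). For the sum with Gm28872, the late polysomal difference was -0.59. Over both stages that sum gave -0.39 in total and -0.38 in polysomal RNA. None of these differences of the sum was called (unadjusted p = 0.064, 0.205 and 0.208 by limma).

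At the early stage neither snRNA was called in either fraction, and SMA replicate 2 alone lay below the controls in total RNA. Early total Rnu12 was at 1634 and 812 FPKM in controls, 1542 FPKM in SMA replicate 1 and 288 FPKM in SMA replicate 2, and Rnu11 at 293 and 234 FPKM in controls, 332 FPKM in SMA replicate 1 and 22.6 FPKM in SMA replicate 2. With SMA replicate 2 as the lone SMA library, the Rnu11 difference was -3.53 in total and -2.46 in polysomal RNA. With SMA replicate 1 as the lone one it was 0.50 in polysomal RNA, the other way. Gm28872 was at 94.0 and 78.4 FPKM in early control and at 171 and 151 FPKM in early SMA total RNA. For its sum with Rnu11 the early differences were -0.23 in total and -0.07 in polysomal RNA, neither called (unadjusted p = 0.728 and 0.902 by limma). Whether reads moved between these rows was not tested. The summed FPKM of all tested snRNA genes was also lowest in SMA replicate 2, at 32147 against 51745 to 111612 in the other early total libraries, and so was that of snoRNA genes, at 33919 against 42705 to 100659. RNAs of this length are near the 100 base read length, and their FPKM is not compared here with that of mRNAs. Rnu4atac and Rnu6atac, the other minor snRNAs, matched no row by symbol and were not analysed here.

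Other measures also differed between genotypes in the late total libraries. The summed FPKM of all tested snRNA genes was 134104, 116728 and 102830 in late control total RNA and 94215, 86768 and 67550 in SMA, without overlap, whereas that of snoRNA genes overlapped (147947, 133012 and 127070 against 142013, 151082 and 81901). As a share of the snRNA sum, chosen after the values were seen, Rnu12 was 0.899%, 0.822% and 0.837% in controls and 0.557%, 0.613% and 0.406% in SMA, also without overlap. The Rnu11 share was 0.214%, 0.193% and 0.201% in controls and 0.179%, 0.158% and 0.154% in SMA, without overlap either. In early total RNA both SMA libraries also had lower shares than both controls. The early Rnu12 share was 1.84% and 1.57% in controls and 1.38% and 0.894% in SMA. That of Rnu11 was 0.33% and 0.453% in controls and 0.298% and 0.0703% in SMA. Both shares overlapped between genotypes in early polysomal RNA. In late polysomal RNA the snRNA sum and the Rnu12 share overlapped. The snRNA sum was 12456, 7380 and 9960 FPKM in controls and 9301, 7766 and 6937 FPKM in SMA, and the Rnu12 share 1.67%, 2.4% and 1.63% against 0.946%, 1.86% and 1.51%. The endothelial markers Cldn5 and Pecam1 were both lower in late SMA total RNA, with a sum of 31.2, 36.0 and 41.0 FPKM in controls against 18.1, 20.1 and 17.7 FPKM, most of it from Cldn5. They were lower in early SMA total RNA too, where Rnu12 was not called, by log2 differences of -1.36 for Cldn5 and -0.63 for Pecam1 (unadjusted p = 0.000974 and 0.00954 by limma). The choroid plexus markers Ttr and Folr1 were both higher, with a sum of 403, 402 and 373 FPKM against 811, 724 and 634 FPKM, nearly all of it from Ttr, and neither was called at the early stage in either fraction. None of these 4 markers was at 0 in any library. Of all 20 brain and blood markers, 4 were called higher and 2 lower in that comparison, where 9.54% of all genes were called, the other 2 being Map2 (0.11) and the microglial gene C1qa (0.62) as higher. In whole tissue, fewer cells of a type and less RNA per cell cannot be told apart, and the part of any of these in the snRNA values was not tested.

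**Figure D4:**
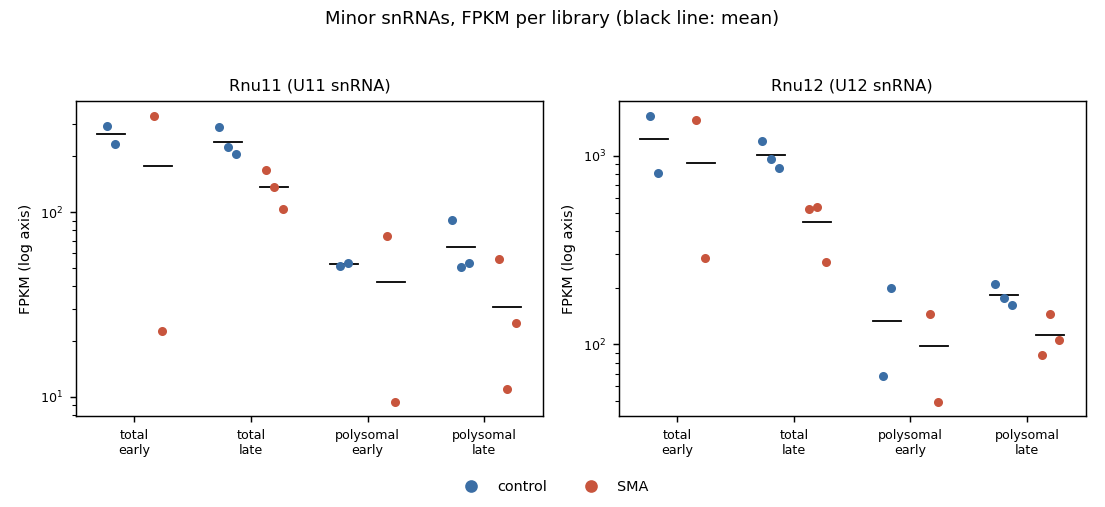
FPKM of the U11 and U12 snRNAs (vertical axes, logarithmic) in every library, by RNA fraction and stage; blue points are control and red points SMA libraries, and black lines are group means (n = 2 early, n = 3 late). In late total RNA all SMA points of both RNAs lie below all control points, and the early SMA points are far apart.

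The 9 genes did not form 1 block of shared variation. Over the 20 libraries, which mix fraction, stage and genotype and come in 10 numbered pairs, the highest correlation of log2 values was between Zrsr2 and Tmem41b (Pearson's r = 0.835), followed by Rnpc3 and Snrnp48 (r = 0.754), and the lowest was between Rnpc3 and Zmat5 (r = -0.688). Among all tested genes, those most like Tmem41b were Rhot1 (r = 0.939), Ptcd3 (r = 0.931) and Msantd4 (r = 0.931). The gene most like Zrsr2 was Csnk2a1 (r = 0.905), most like Zcrb1 Cep83 (r = 0.935), and most like Rnpc3 2610037D02Rik (r = 0.957). For Snrnp35 no gene passed the r = 0.815 of Polr2j.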

How the data were processed

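Libraries were made with a stranded total RNA kit. Per the labels and the study's methods, the authors aligned 100 base reads to GRCm38.p4 with TopHat2 2.0.14 and the Gencode M6 annotation and computed FPKM with Cufflinks 2.2.1, with programs at default settings. The deposited table holds 1 FPKM value per gene and library. The reads behind a single FPKM value are unknown, and library totals were not used. The study's own tests used CuffDiff and Xtail, which need alignments or counts. Here genes were kept if their mean over 20 libraries reached 1 FPKM, which left 15247, and log2(FPKM + 0.1) was fitted with limma 3.58.1 (R 4.3.3, lmFit and eBayes with trend, checked on simulated data), and p-values were adjusted by Benjamini-Hochberg over all of them. Calls are at an unadjusted p under 0.05. Fold changes on this scale understate those of low genes. The 9 genes and all lists were chosen with earlier results of these data known. Named were the 9 genes, called members of the lists, the minor snRNAs, U12-intron genes without overlap at either stage and the genes most like each of the 9.

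Replicate numbers were tested as a block only as an alternative. Within a number, the deviations of total and polysomal RNA correlated at r = 0.162 to 0.449 in the 6 late mice, each over 0.1, and at 0.0952 and 0.215 in the early ones, so the late numbers pair the fractions. Control and SMA libraries of the same number did not deviate together (r = -0.144 to 0.103). Controls were littermates, but which mice shared a litter is not given in the sources used here. In comparisons within 1 fraction, p-values measure the spread between these brains. The main fits of TE and of polysomal against total RNA took every library as independent. Their p-values do not take up the pairing of fractions within a number and do not measure the spread between brains. Other alternatives were pseudocounts of 1 and 0.01, no filter, a filter at 5 FPKM, equal medians, quantile normalization, no variance trend, 1 model over all libraries, a correction for transcript length (Gencode M21, 99.4% of genes matched) and leaving out each mouse. No column was left without a sample. Genomic sequence was not used here, so U12-type introns came from a list of genes.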

Additional observations from a re-analysis of the deposited data

Results flagged for a closer look

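The effect of genotype differed between fractions or stages, by an interaction term with an unadjusted p under 0.05 in limma, for 4 values of the 9 genes. The change in TE of Snrnp48 at the late stage was -0.44 (adjusted p = 1 by limma), given above. Snrnp25 in polysomal RNA had a difference between SMA and control of -0.41 at the early and 0.09 at the late stage, and the difference between stages was 0.50 (SE 0.14, unadjusted p = 0.00942, adjusted p = 0.295 by limma). It was past the threshold under all 21 alternatives, among them each mouse left out, with values from 0.32 to 0.61. Rnpc3 in polysomal RNA had a difference of 0.59 at the early and -0.25 at the late stage, which gave -0.84 (SE 0.33, unadjusted p = 0.0363, adjusted p = 0.348 by limma). Without each of early control replicate 1, early SMA replicate 1, late control replicate 2 and late SMA replicates 1 and 3 it was no longer past the threshold, and its values over all alternatives ran from -1.06 to -0.63. Zmat5 in total RNA had a difference of -0.27 at the early and -0.04 at the late stage, which gave 0.23 (SE 0.09, unadjusted p = 0.0443, adjusted p = 0.486 by limma), and 9 of 21 alternatives kept it past the threshold. Among all genes, 10.1% had such a difference between stages in total RNA and 13.7% in polysomal RNA. None of the 4 passed adjustment over all genes, and stage cannot be told apart from batch.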

How the results depend on the processing

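Of 250 recomputed numbers of called genes among the 9, 187 stayed within 1.5 times the value given, and of 2250 recomputed single values of the 9 genes, 2086 kept their side of the threshold with no change of sign beyond their standard error, 101 lost and 43 gained a call, and 18 uncalled ones changed sign by more than that. With 1 model over all libraries, 2 genes were called in early total, 3 in early polysomal and 1 in late polysomal RNA, and over both stages 0 in total and 1 in polysomal RNA. Without a filter and without a variance trend, 1 was called in early total RNA. With a filter at 5 FPKM, 0 were called over both stages in total RNA. With the replicate number as a block, 0 were called for late TE, over both stages in total RNA and for the difference between stages in total RNA, and the same held with the block and length correction together, which also left 0 in early polysomal RNA. The block changed no number of calls by over 1.5 times elsewhere, and it could not be fitted to the comparison of stages. Length correction alone left 0 called in early polysomal RNA, 3 between stages in total RNA and 0 for the difference between stages in total RNA. Quantile normalization left 1 for the difference between stages in polysomal RNA. Leaving out each mouse gave 0 to 3 called genes in early total, 0 to 2 in early polysomal, 0 to 1 in late total and 0 to 2 in late polysomal RNA, 0 to 1 for early and 0 to 2 for late TE, 0 to 1 over both stages in either fraction, 3 to 5 between stages in total and 2 to 5 in polysomal RNA, and 0 to 2 and 1 to 3 for the difference between stages in total and polysomal RNA. Where 1 early mouse then stood for its group, it was assumed to vary like the others. The sign turned for the difference between stages of Zmat5 in total RNA, which was -0.02 with length correction, with or without the block, and, without early SMA replicate 2, for Rnu11 in early polysomal RNA (0.50, and -2.46 without early SMA replicate 1) and for its difference between stages in total RNA (-1.17, and 2.70 without early SMA replicate 1). The cause was not tested. A stricter motif rule for U12-type introns was not run. With 2 or 3 mice per genotype, intervals are wide, exact tests cannot go below 0.333 for 2 against 2 or 0.1 for 3 against 3, and depth per gene is unknown.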
